A study of Homo sapiens with 6 samples.

Results

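The genes described here are the histone lysine demethylases, methyltransferases, acetyltransferases and deacetylases measured in HaCaT cells with and without knockdown of IQGAP2. They were chosen by symbol: every gene of the table whose symbol starts with KDM, KMT, SETD, KAT, HDAC or SIRT followed by a digit was taken. This gave 60 genes out of 12829, of which 17 were demethylases (KDM), 17 were methyltransferases (8 KMT and 9 SETD), 8 were acetyltransferases (KAT) and 18 were deacetylases (11 HDAC and 7 SIRT). The set was put together with results of this same comparison known, so counts and differences within it are given as a description and serve as evidence for nothing beyond the genes themselves. HaCaT is an aneuploid, immortalised human keratinocyte line used as a model of the epidermis. The control group held 3 libraries of wild-type HaCaT cells labelled as a normal control, and the sources used here do not say whether these cells carried a control hairpin. The knockdown group held 3 libraries of HaCaT cells with a short hairpin RNA against IQGAP2 (shIQGAP2), a scaffold protein that binds actin and calmodulin. All 6 cultures grew in DMEM with fetal bovine serum, the libraries of a group are labelled as biological replicates, and the sources used here do not say how many hairpins or clones stand behind the knockdown group.

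Histone tails carry methyl and acetyl groups on lysines, and these marks are written by methyltransferases and acetyltransferases and taken off by demethylases and deacetylases. Acetylation of H3 and H4 and methylation of H3K4 (lysine 4 of histone H3) are typical of active promoters and enhancers, whereas methylation of H3K9, H3K27 and H4K20 is typical of silent or compacted chromatin. In the epidermis these enzymes are known for holding basal keratinocytes in the progenitor state and for opening differentiation genes as cells leave the basal layer. KDM1A and KDM1B are FAD-dependent demethylases, and KDM1A works with HDAC1 and HDAC2 in the CoREST complex, whereas all other KDM enzymes here are jumonji-type oxygenases.

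Of the genes tested, 10 of 16 demethylases and 10 of 17 methyltransferases were called higher in the knockdown libraries, beside 29.5% of all genes. With the trend over exon length taken out of all genes these counts were 8 and 6, beside 28.1% of all genes. Of the 8 acetyltransferases with KAT symbols 3 were called higher and 2 lower, shares near the 29.5% and 27.8% of all genes. The deacetylases were centred slightly below the control level as deposited and slightly above it on a common FPKM sum. The largest rises belonged to KDM7A, KDM3A, SETD7, KDM1B and HDAC9, and the falls were those of KAT2A, KAT8, KDM1A, HDAC2 and HDAC1, the last 2 of which did not fall on the common sum. A pair of paralogs moved in opposite directions: KDM1A fell while KDM1B rose. The acetyltransferase KAT2A also fell, and its paralog KAT2B did not pass the test. The promoters of both pairs are shown for that reason, each from 250 bases before to 50 bases after the RefSeq start on GRCh38.p14, written 5′ to 3′ on the strand of the gene. Capitals mark GGGCGG or its reverse complement CCGCCC, the core of the GC box. The KDM1A window lies at chr1:23019218-23019517 (plus strand), the KDM1B window at chr6:18155172-18155471 (plus strand), the KAT2A window at chr17:42121318-42121617 (minus strand) and the KAT2B window at chr3:20040196-20040495 (plus strand).
KDM1A: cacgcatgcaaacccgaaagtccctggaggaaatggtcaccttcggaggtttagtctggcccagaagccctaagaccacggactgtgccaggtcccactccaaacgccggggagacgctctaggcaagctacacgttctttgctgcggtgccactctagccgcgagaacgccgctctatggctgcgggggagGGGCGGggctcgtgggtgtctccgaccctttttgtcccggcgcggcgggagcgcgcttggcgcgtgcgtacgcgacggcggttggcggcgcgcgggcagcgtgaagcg
KDM1B: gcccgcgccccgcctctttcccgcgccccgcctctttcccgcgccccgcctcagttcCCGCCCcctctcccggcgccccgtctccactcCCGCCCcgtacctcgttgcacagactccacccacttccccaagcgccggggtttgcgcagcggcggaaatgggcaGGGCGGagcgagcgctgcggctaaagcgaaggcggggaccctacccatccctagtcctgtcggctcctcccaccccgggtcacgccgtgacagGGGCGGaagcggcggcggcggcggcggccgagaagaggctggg
KAT2A: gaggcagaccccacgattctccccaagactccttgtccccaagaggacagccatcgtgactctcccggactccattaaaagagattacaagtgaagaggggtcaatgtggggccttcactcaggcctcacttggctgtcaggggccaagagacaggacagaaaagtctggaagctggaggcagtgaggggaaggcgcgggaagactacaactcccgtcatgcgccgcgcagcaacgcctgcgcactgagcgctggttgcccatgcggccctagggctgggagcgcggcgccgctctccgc
KAT2B: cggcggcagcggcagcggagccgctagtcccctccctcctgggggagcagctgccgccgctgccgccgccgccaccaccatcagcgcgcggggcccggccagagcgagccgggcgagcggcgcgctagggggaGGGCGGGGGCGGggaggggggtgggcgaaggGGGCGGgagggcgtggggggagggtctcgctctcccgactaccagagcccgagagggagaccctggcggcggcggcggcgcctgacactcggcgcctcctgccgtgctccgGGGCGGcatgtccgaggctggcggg

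The GC box core occurred 1 time in the KDM1A window, 4 times in that of KDM1B, 0 times in that of KAT2A and 4 times in that of KAT2B. The KAT2B window held 80.3% G and C, against 62.0% for KAT2A, 66.7% for KDM1A and 74.7% for KDM1B. RefSeq windows were matched by symbol for 55 of the 60 genes, with 85 windows in all, and not for KAT6A, KAT8, HDAC5, SETD1B and SIRT7. The GC box core was found on either strand in 68.2% of these windows and in 45.0% of all 35116 windows given by RefSeq, and CCAAT or its reverse complement ATTGG in 31.8% and 34.6%. Within the 4 windows printed, CCAAT was found 0 times. The median G and C content was 66.7% over the windows of the set and 58.7% over all windows. A match is a description of letters and not a binding site.

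The table gave FPKM (fragments per kilobase of gene, scaled to the depth of the library), and the whole reads behind it amounted to 12901037 to 15360759 per library, so that the 60 genes had between 54 and 24865 reads over the 6 libraries. The targeted gene was listed at 0.200, 0.198 and 0.190 FPKM in control replicates 1 to 3 (24, 22 and 21 reads) and at 0.0196, 0.0328 and 0.0182 FPKM in knockdown replicates 1 to 3 (2, 4 and 2 reads). The knockdown mean of IQGAP2 was 12.0% of the control mean, and the groups did not overlap. Its log2 change on the log2(FPKM + 1) scale was -0.22 ± 0.07 (SE; adjusted p = 0.0217), and by exact permutation (two-sided) p was 0.1, which is the minimum for 3 against 3 libraries. The call for IQGAP2 was lost without control replicate 1, 2 or 3 or without knockdown replicate 3, with adjusted p between 0.0519 and 0.0556. All 8 keratinocyte markers looked up were in the table, and their summed level was 5306 to 5391 FPKM in the control group and 5240 to 5834 FPKM in the knockdown group. Of the markers of other cells, 3 of 6 for fibroblasts were in the table (3.46 to 3.79 FPKM summed in control and 1.56 to 1.91 in knockdown), 2 of 5 for melanocytes (1.20 to 1.28 and 0.855 to 1.04), 2 of 4 for endothelium (0.269 to 0.401 and 0.424 to 0.484) and 0 of 5 for immune cells. Knockdown replicate 2 stood apart, with a correlation of 0.993 and 0.994 to the other knockdown libraries, against 0.997 between these, and its summed FPKM of 234624 was the lowest of all.

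Of the 60 genes, 57 passed the filter of a mean of at least 0.5 FPKM, and KDM8, HDAC8 and HDAC10 did not. A gene is said to have risen or fallen where its adjusted p was below 0.05 in a limma fit over all 11214 genes tested. In that fit 57.4% of all genes were called, 29.5% higher and 27.8% lower in knockdown. Of the 57 enzymes tested 27 rose, 5 fell and 25 were not called. In the same fit without knockdown replicate 2, 26 were called higher and 6 lower, where 3250 and 3212 of all genes were. The median log2 change of the 57 was 0.16, against 0.01 over all genes tested. Before the filter, 28 of the 60 enzymes were higher in every knockdown library than in any control library and 9 were lower in every one, where 31.4% and 29.6% of the whole table did so. In bulk RNA a change in the make-up of the culture and a change of RNA per cell cannot be told apart.

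**Figure D1:**
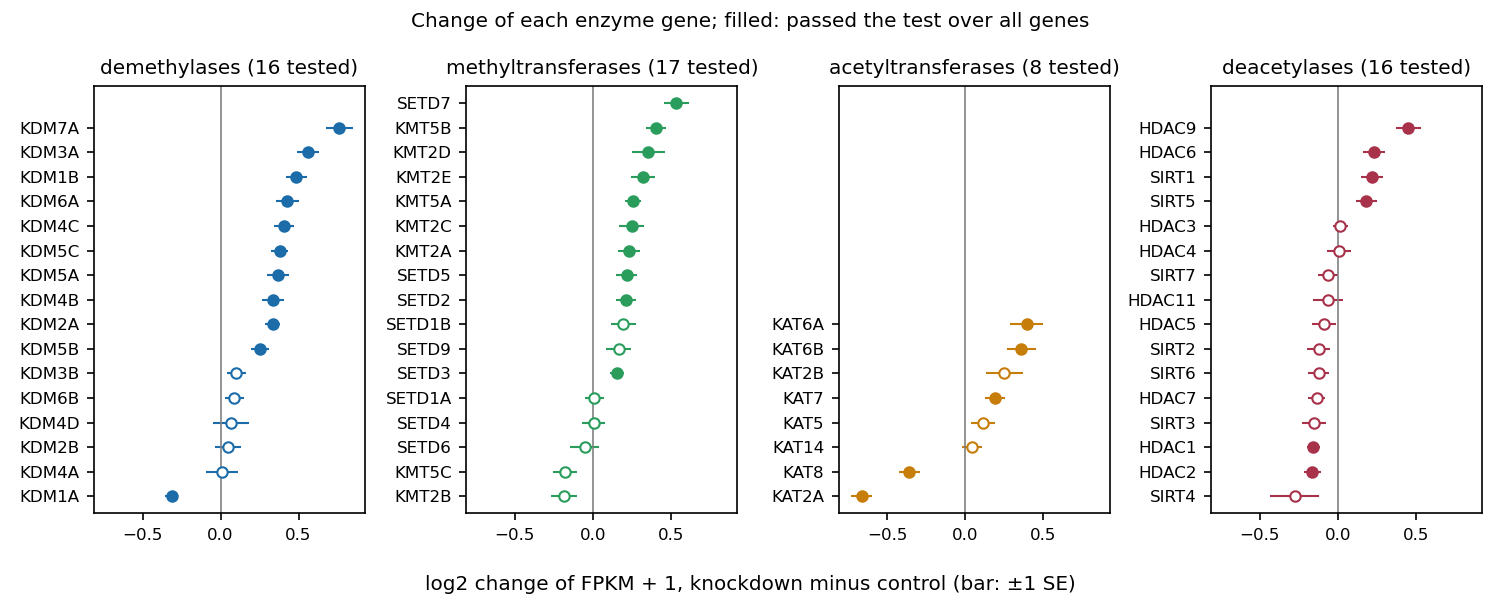
Log2 change of FPKM + 1 in each tested enzyme gene, knockdown minus control (x axis), by class (panels, 1 gene per row); points are fitted changes, bars are 1 SE, and filled points passed the test over all genes. Among demethylases 10 of 16 points are filled to the right of 0 and KDM1A alone is filled to the left, whereas the acetyltransferases hold filled points on both sides.

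Among the classes formed by symbol, the demethylases had the highest median. Relatives with other symbols are left out of the classes. The median was 0.44 for 13 other acetyltransferases and 0.02 for 20 other lysine methyltransferases. Of 16 tested 10 rose and 1 fell (62.5% and 6.25%, beside 29.5% and 27.8% of all genes), and the median log2 change was 0.33. The 10 that rose spanned 0.25 to 0.76 on the log2 scale, the highest adjusted p among the called was 0.00429, and the 5 not called lay between 0.01 and 0.10.

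The largest rise was that of KDM7A, a jumonji enzyme that removes methyl groups from H3K9 and H3K27. Its level was 2.40, 1.95 and 2.24 FPKM in control replicates 1 to 3 and 4.36, 4.88 and 4.03 FPKM in knockdown replicates 1 to 3. Each knockdown library was above each control library, and the mean rose 2.01-fold, to 4.42 ± 0.430 FPKM (SD, n = 3; log2 change 0.76 ± 0.08 SE, adjusted p = 5.21e-05). KDM3A, which removes mono- and dimethylation of H3K9, was listed at 6.78, 6.91 and 7.13 FPKM in control and at 10.2, 12.0 and 10.0 FPKM in knockdown libraries. The groups were well apart, with a mean 1.55-fold higher in knockdown (log2 change 0.56 ± 0.07, adjusted p = 0.000119). Of the 7 demethylases assigned to H3K9, 4 rose and 0 fell (57.1% higher, beside 29.5% of all genes), with a median log2 change of 0.33.

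Among the H3K4 demethylases the direction depended on the gene: 4 of 5 rose and KDM1A fell (80% and 20%, beside 29.5% and 27.8% of all genes). KDM1A, also called LSD1, lies on chromosome 1 (GRCh38, 23019443 to 23083689, plus strand) and had the highest level of all demethylases. It stood at 59.2, 59.5 and 58.4 FPKM in control and at 46.4, 47.6 and 47.8 FPKM in knockdown libraries. The spread within each group was under 1 FPKM (SD 0.587 and 0.756, n = 3), and the mean fell by 19.9% in knockdown (log2 change -0.31 ± 0.04, adjusted p = 0.000136). KDM1B, its paralog on chromosome 6 (18155329 to 18223853, plus strand), was at 4.20, 4.76 and 4.82 FPKM in control and at 6.54, 7.06 and 6.86 FPKM in knockdown libraries. All 3 knockdown values lay above the control values, and the log2 change was 0.48 ± 0.07 (adjusted p = 0.000223). KDM5B, which removes trimethylation of H3K4, rose from 6.60 ± 0.242 to 8.04 ± 0.232 FPKM (adjusted p = 0.00429), but with the trend over exon length taken out its log2 change was 0.03 (adjusted p = 0.686). As deposited, the summed level of the 5 H3K4 demethylases was 91.4 to 92.0 FPKM over the control libraries and 89.6 to 92.6 FPKM over the knockdown libraries. In these sums the abundant KDM1A fell and the others rose. The FPKM of all genes summed to 271372 to 274709 in control and to 234624 to 248082 in knockdown libraries. A level sum as deposited is thus not a level share of the library.

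The 2 paralogs listed under H3K27, KDM6A and KDM6B, differed. Each demethylase was listed under 1 site at most, so KDM7A is counted with H3K9 alone. KDM6A, known as UTX and a member of the KMT2C and KMT2D complexes, was listed at 2.72, 2.45 and 2.72 FPKM in control and at 3.83, 4.14 and 3.68 FPKM in knockdown libraries. The groups did not overlap, and the mean was 1.48-fold higher in knockdown (adjusted p = 0.000648). KDM6B, known as JMJD3 and linked to epidermal differentiation, was listed at 10.9, 11.2 and 9.89 FPKM in control and at 11.8, 11.3 and 11.1 FPKM in knockdown libraries. The groups overlapped, the log2 change was 0.09 ± 0.06, and the adjusted p was 0.229. With all libraries scaled to a common FPKM sum KDM6B passed the test at 0.24 (adjusted p = 0.00820). On that scale the median over all genes was 0.14. Of KDM2A and KDM2B, the 2 genes listed under H3K36, 1 rose (50%, beside 29.5% of all genes). KDM8 was below the filter with a mean of 0.446 FPKM.

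**Figure D2:**
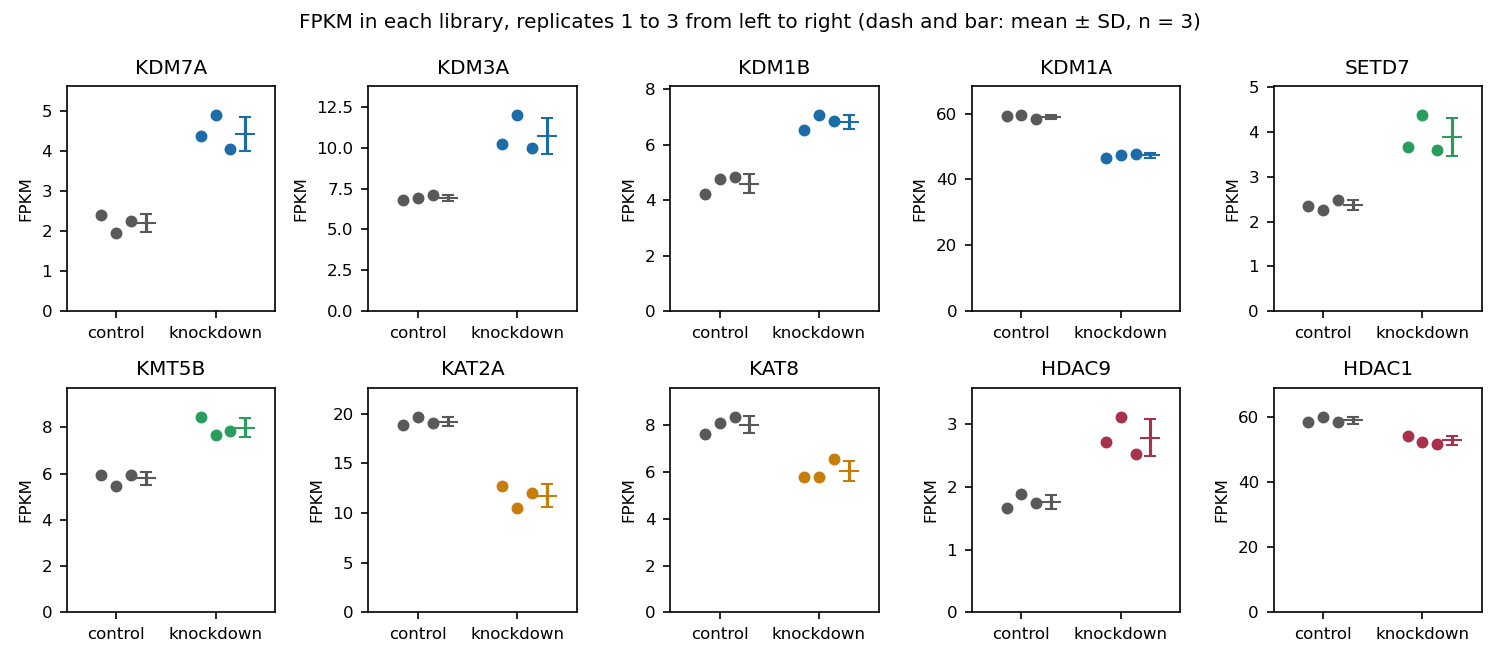
FPKM (y axis, from 0) of 10 enzyme genes in each control library (grey) and knockdown library (coloured by class), with the group mean and SD beside the points (n = 3). KDM1A stands at 58.4 to 59.5 in control and 46.4 to 47.8 in knockdown, and KAT2A at 18.9 to 19.7 and 10.5 to 12.7, whereas the other genes that rose sit well above their control points.

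Of the 17 methyltransferases 10 rose and 0 fell (58.8% higher, beside 29.5% of all genes), with a median log2 change of 0.21. Among those that rose the highest adjusted p was 0.0248, and the 7 not called lay between -0.19 and 0.20. Among these KMT2B, named here after its values were seen, was lower in every knockdown library than in any control library (log2 change -0.19). With the trend over exon length taken out KMT2B was called lower (-0.33, adjusted p = 0.00228), and 6 of the class were called higher. The count that rose was 6 without control replicate 2 and 5 without control replicate 3, while the median log2 change in these fits was 0.22 and 0.18. What share of all genes these fits called is not given here, so the lower counts cannot be read as particular to this class. By family, 6 of 8 KMT genes and 4 of 9 SETD genes rose.

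SETD7, a small monomethyltransferase that acts on H3K4 in vitro and on many non-histone proteins, had the largest rise of the class. It stood at 2.35, 2.26 and 2.49 FPKM in control and at 3.67, 4.38 and 3.61 FPKM in knockdown libraries. Every knockdown value exceeded every control value, and the mean was 1.64-fold higher (log2 change 0.53 ± 0.08, adjusted p = 0.000330). The H4K20 methyltransferases followed, with 2 of 3 called higher (66.7%, beside 29.5% of all genes). KMT5B, which places di- and trimethylation on H4K20, was at 5.95, 5.48 and 5.95 FPKM in control and at 8.46, 7.66 and 7.84 FPKM in knockdown libraries (log2 change 0.40 ± 0.06). KMT5A, the only known H4K20 monomethyltransferase and a gene needed for progression through the cell cycle, was the most abundant of the class. It was listed at 29.2, 27.8 and 26.3 FPKM in control and at 32.3, 34.9 and 32.9 FPKM in knockdown libraries. KMT5A rose 1.20-fold (adjusted p = 0.00233), and its log2 change was 0.26 both as deposited and with the length trend taken out.

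The calls of KMT2A and KMT2D, large H3K4 methyltransferases, depended on the treatment of length. Over the 7 H3K4 methyltransferases 4 rose and 0 fell (57.1% higher, beside 29.5% of all genes). With the length trend taken out 1 was called higher and 1 lower, beside 28.1% and 28.6% of all genes. The median log2 change was then 0.04. Knockdown replicate 2 was the highest knockdown library for 7 of 7. KMT2D, which writes H3K4 monomethylation at enhancers, was at 1.83, 1.68 and 1.77 FPKM in control and at 2.11, 3.19 and 2.37 FPKM in knockdown libraries. The knockdown values were all above the control values but spread widely (SD 0.563, against 0.0782 in control), and the log2 change was 0.35 ± 0.11 (adjusted p = 0.0159). KMT2A, the target of leukaemia fusions, rose from 2.50 ± 0.0621 to 3.11 ± 0.225 FPKM (log2 change 0.23 ± 0.07). With the length trend taken out the changes were 0.14 for KMT2D (adjusted p = 0.172) and 0.00 for KMT2A (adjusted p = 0.973). The call for KMT2D was also lost without control replicate 2 (adjusted p = 0.0516), and that for KMT2A without control replicate 2 or 3 (adjusted p = 0.0626 and 0.0513). Of its exon bases KMT2A shares 17.9% with another coding gene, so its level is uncertain where counting did not use strand.

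Among the remaining methyltransferases KMT2E, a SET-domain protein with no established histone activity, rose from 5.72 ± 0.199 to 7.41 ± 0.832 FPKM. SETD2, the enzyme that trimethylates H3K36 in gene bodies, rose from 5.27 ± 0.228 to 6.27 ± 0.217 FPKM, and SETD5, a SET-domain protein found with deacetylase complexes, from 7.40 ± 0.199 to 8.77 ± 0.726 FPKM. With the length trend taken out SETD2 was at 0.07 (adjusted p = 0.316) and SETD5 at 0.07 (adjusted p = 0.347). Without control replicate 3 their adjusted p-values were 0.0677 and 0.0668, and without control replicate 1 that of SETD5 was 0.0601. SETD3, which methylates a histidine of actin rather than a histone, rose by 11.7%, from 20.7 ± 0.241 to 23.2 ± 0.485 FPKM. Its call was lost without control replicate 2 (adjusted p = 0.05) and without control replicate 3 (adjusted p = 0.0620).

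The KAT acetyltransferases were called in both directions, at shares near those of all genes. Of 8 genes 3 rose and 2 fell (37.5% and 25.0%, beside 29.5% and 27.8% of all genes), and the log2 changes ran from -0.67 to 0.39 with a median of 0.15. The summed level of the class was 42.4 to 44.1 FPKM over the control libraries and 36.9 to 37.4 FPKM over the knockdown libraries. The mean of KAT2A alone went from 19.2 to 11.8 FPKM, and the summed FPKM of all genes was also lower in knockdown libraries. With all libraries scaled to a common FPKM sum 6 of the 8 rose and 2 fell, beside 43.4% and 16.4% of all genes.

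KAT2A, also called GCN5 and the catalytic subunit of the SAGA and ATAC complexes, showed the largest fall of all 57 enzymes. It lies on chromosome 17 (42113108 to 42121358, minus strand) and stood at 18.9, 19.7 and 19.0 FPKM in control and at 12.7, 10.5 and 12.0 FPKM in knockdown libraries. The groups were far apart, and the mean fell by 38.7% in knockdown (log2 change -0.67 ± 0.07, adjusted p = 2.61e-05). KAT2B, also called PCAF and the alternative subunit of the same complexes, lies on chromosome 3 (20040023 to 20154404, plus strand). It was listed at 1.5, 1.43 and 1.79 FPKM in control and at 1.74, 2.70 and 1.79 FPKM in knockdown libraries. Only knockdown replicate 2 stood clear of the control values, and the log2 change of 0.25 ± 0.12 did not pass the test (adjusted p = 0.0946). With all libraries scaled to a common FPKM sum it did (0.36, adjusted p = 0.0300), where the median over all genes was 0.14. KAT2A shares 10.8% of its exon bases with another coding gene.

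Of the 5 MYST acetyltransferases 3 were called higher and 1 lower (60% and 20%, beside 29.5% and 27.8% of all genes). KAT8, known as MOF and the main H4K16 acetyltransferase, was at 7.62, 8.08 and 8.34 FPKM in control and at 5.78, 5.78 and 6.54 FPKM in knockdown libraries. No knockdown value reached the control range, and the mean fell by 24.7% (log2 change -0.36 ± 0.07, adjusted p = 0.00125). KAT6A and KAT6B, the catalytic subunits of the MOZ and MORF complexes that acetylate H3K23, had log2 changes of 0.39 ± 0.11 and 0.36 ± 0.09. KAT6A was listed at 2.08, 2.14 and 1.86 FPKM in control and at 2.61, 3.71 and 2.68 FPKM in knockdown libraries, so that replicate 2 was again the highest. KAT7, known as HBO1 and an H3K14 acetyltransferase, rose from 3.83 ± 0.149 to 4.51 ± 0.136 FPKM (adjusted p = 0.0274). None of these 3 rises passed with the length trend taken out (adjusted p = 0.0941 for KAT6A, 0.180 for KAT6B and 0.735 for KAT7). KAT7 was also not called without control replicate 1 or 2 or knockdown replicate 3 (adjusted p = 0.0788, 0.0930 and 0.0816). KAT5, known as TIP60, was higher in all 3 knockdown libraries (3.12 ± 0.242 against 3.46 ± 0.225 FPKM) but did not pass the test (adjusted p = 0.227), and 38.6% of its exon bases are shared with another coding gene.

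Of 16 deacetylases tested 4 rose and 2 fell (25.0% and 12.5%, beside 29.5% and 27.8% of all genes), and 10 were not called. The median log2 change was -0.07, and 0.06 with all libraries scaled to a common FPKM sum. HDAC8 and HDAC10, with means of 0.479 and 0.132 FPKM, were not tested. The number that rose was 1 without control replicate 1 and 2 without control replicate 3, knockdown replicate 1 or knockdown replicate 3. The number that fell was 1 without control replicate 1 or 3 and 0 without control replicate 2. The share of all genes called in these fits is not given here, so the lower counts cannot be read as particular to this class.

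HDAC1 and HDAC2, the catalytic subunits of the Sin3, NuRD and CoREST complexes, fell by similar amounts. HDAC1 was at 58.4, 60.1 and 58.5 FPKM in control and at 54.3, 52.4 and 51.9 FPKM in knockdown libraries, so that its mean fell by 10.4% (log2 change -0.16 ± 0.04, adjusted p = 0.00995). HDAC2 was at 12.7, 13.2 and 12.5 FPKM in control and at 11.9, 11.0 and 11.0 FPKM in knockdown libraries, and its mean fell by 11.6% (adjusted p = 0.0249). With all libraries scaled to a common FPKM sum their changes were 0.01 and -0.01 (adjusted p = 0.898 and 0.886). Without control replicate 2 the adjusted p was 0.0509 for HDAC1 and 0.0967 for HDAC2, and HDAC2 was also not called without control replicate 1 (0.0615), control replicate 3 (0.0533) or knockdown replicate 3 (0.0764). HDAC3, the catalytic subunit of the NCoR and SMRT complexes, had a mean of 15.6 ± 0.107 FPKM in the control group and 15.8 ± 0.566 FPKM in the knockdown group (log2 change 0.02 ± 0.05, adjusted p = 0.802), and it passed the test on the common sum (0.17, adjusted p = 0.0142).

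HDAC9, a class IIa deacetylase that works mainly as a corepressor of MEF2 factors, had the largest rise of the class. It was at 1.66, 1.89 and 1.74 FPKM in control and at 2.72, 3.12 and 2.52 FPKM in knockdown libraries, with no overlap, and its mean was 1.58-fold higher (log2 change 0.45 ± 0.08, adjusted p = 0.000945). The 3 other class IIa genes were not called. Among these HDAC7, named here after its values were seen, was lower in every knockdown library than in any control library. Its log2 change was -0.14 (adjusted p = 0.0536), and with the length trend taken out it was called lower (-0.27, adjusted p = 0.00286). HDAC6, a cytoplasmic deacetylase of tubulin, was at 4.23, 4.27 and 4.28 FPKM in control and at 5.44, 5.41 and 4.72 FPKM in knockdown libraries (adjusted p = 0.0160). HDAC6 did not pass with the length trend taken out (0.08, adjusted p = 0.292), nor without control replicate 1 or knockdown replicate 1 (adjusted p = 0.0504 and 0.0540).

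Sirtuins use NAD as a cosubstrate, and 2 of the 7 rose (28.6%, beside 29.5% of all genes) while 0 fell. SIRT1, the nuclear sirtuin that deacetylates histones and p53, was at 6.17, 6.79 and 5.81 FPKM in control and at 7.05, 7.40 and 7.89 FPKM in knockdown libraries. The groups were separate by a small margin (log2 change 0.22 ± 0.07, adjusted p = 0.0220). SIRT1 was not called without control replicate 1 or 3 or knockdown replicate 3 (adjusted p = 0.0678, 0.0975 and 0.0784). SIRT5, a mitochondrial desuccinylase, was at 3.66, 3.50 and 3.46 FPKM in control and at 4.49, 3.98 and 4.01 FPKM in knockdown libraries (adjusted p = 0.0438), and of the 6 fits without a library it kept its call only in that without knockdown replicate 2. The adjusted p of SIRT5 without 1 of the other 5 libraries was between 0.0576 and 0.146, and it was 0.133 with the length trend taken out. SIRT6, a nuclear deacetylase of H3K9 and the most abundant sirtuin, was at 11.9, 11.7 and 10.7 FPKM in control and at 11.2, 9.73 and 10.4 FPKM in knockdown libraries, with overlap (log2 change -0.12 ± 0.07, adjusted p = 0.135).

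Set side by side in each library, the class medians followed the same order in all 3 knockdown libraries. The median over the demethylases of the deviation from the control mean was 0.29, 0.38 and 0.28 in knockdown replicates 1 to 3, and that over the methyltransferases was 0.17, 0.25 and 0.18. For the acetyltransferases it was 0.13, 0.12 and 0.10, and for the deacetylases -0.05, -0.13 and -0.05. The demethylase median exceeded the deacetylase median by 0.34, 0.51 and 0.33 in knockdown libraries. In control libraries the difference was -0.00, -0.01 and 0.04, near 0 by construction because deviations were taken from the control mean. A factor common to all genes of a library largely cancels in this difference. Knockdown replicate 2 was the highest knockdown library for 12 of 17 demethylases, 12 of 17 methyltransferases, 3 of 8 acetyltransferases and 3 of 18 deacetylases, and for 5629 of the 12829 genes of the table. Without it the class medians were 0.30, 0.18, 0.12 and -0.05 in the same order.

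**Figure D3:**
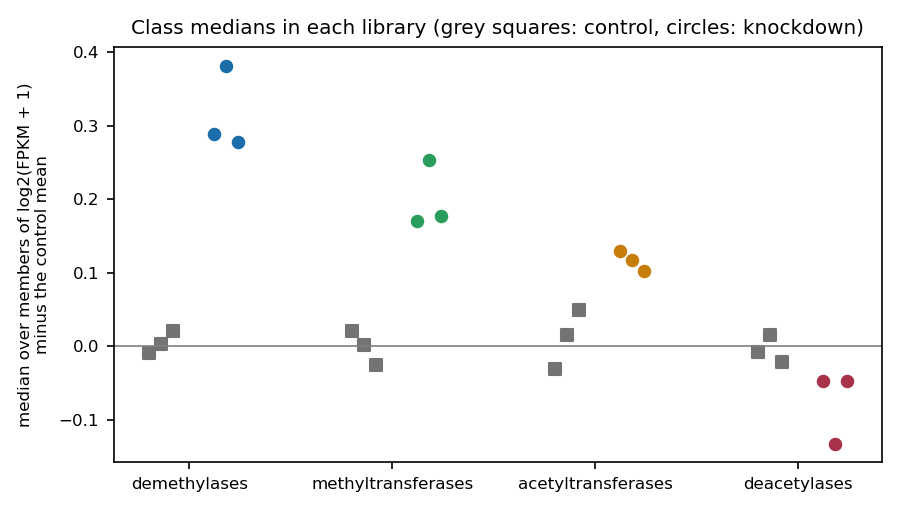
Median over the tested members of each class of log2(FPKM + 1) minus the control mean (y axis), in each control library (grey squares) and knockdown library (circles), replicates 1 to 3 from left to right. The knockdown medians lie at 0.28 to 0.38 for demethylases and at -0.13 to -0.05 for deacetylases. Control medians lie near 0 by construction, as deviations are taken from the control mean. On a common FPKM sum the deacetylase median over all libraries was 0.06.

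Paralogs measured in the same library give ratios that a scaling of the library leaves unchanged, and 7 pairs were formed after their values had been seen. The ratio of KDM1B to KDM1A was 0.0709, 0.0800 and 0.0826 in control and 0.141, 0.148 and 0.143 in knockdown libraries. The ratio of KAT2A to KAT2B was 12.6, 13.8 and 10.6 in control and 7.29, 3.89 and 6.72 in knockdown libraries. In both pairs the groups were clearly apart. The ratio of KDM3A to KDM3B was 0.510 ± 0.00406 in control and 0.731 ± 0.0403 in knockdown libraries, and that of KDM6A to KDM6B 0.248 ± 0.0277 and 0.341 ± 0.0229. KDM2A over KDM2B (4.77 ± 0.433 and 5.83 ± 0.493) and KAT6A over KAT6B (3.16 ± 0.333 and 2.70 ± 0.0617) were separate by less. HDAC1 over HDAC2, subunits that pair in the same complexes, was at 4.62 ± 0.0542 in control and 4.68 ± 0.0989 in knockdown libraries, with overlapping groups.

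**Figure D4:**
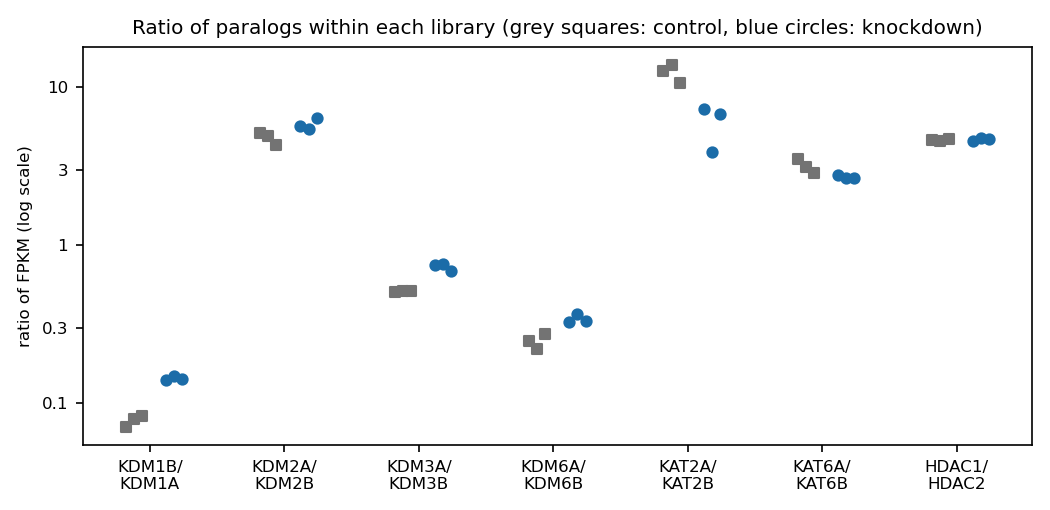
Ratio of the FPKM of 2 paralogs within each library (y axis, log scale) for 7 pairs, in control (grey squares) and knockdown libraries (blue circles), replicates 1 to 3 from left to right. KDM1B over KDM1A moves from 0.0709 to 0.0826 in control up to 0.141 to 0.148 in knockdown, whereas HDAC1 over HDAC2 stays between 4.57 and 4.76 in all 6 libraries.

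The members' changes went with the length of their exons. In GENCODE v29 the median exon length was 9.08 kb for the demethylases, 8.63 kb for the methyltransferases, 4.98 kb for the acetyltransferases and 6.19 kb for the deacetylases, against 5.08 kb over all genes tested. Across the 57 genes the log2 change and the log2 exon length had a Pearson r of 0.51 and a Spearman rho of 0.53, and the values across 11209 genes tested were 0.26 and 0.30. These are correlations across genes of the same 6 libraries, which are not independent replicates. Of the 21 members of at least 10 kb 17 rose and 1 fell, where 48.9% of 1277 genes of that length rose and 10.8% fell. Of the 23 members of 5 to 10 kb 8 rose and 1 fell (33.9% and 20.5% of all genes), and of the 13 shorter members 2 rose and 3 fell (21.6% and 37.7%). Within the longest genes 6 of 7 demethylases, 6 of 7 methyltransferases, 3 of 3 acetyltransferases and 2 of 4 deacetylases rose.

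With a smooth trend over exon length taken out of all genes, 28.1% of genes were called higher and 28.6% lower, and the members' counts were 16 higher and 7 lower. Of the 27 that had risen 15 kept the call, and all 5 that had fallen kept it. By class 8 of 16 demethylases, 6 of 17 methyltransferases, 0 of 8 acetyltransferases and 2 of 16 deacetylases were then higher, and 1, 1, 2 and 3 were lower. The class medians were 0.18, 0.07, 0.09 and -0.11, so the acetyltransferases no longer ranked below the methyltransferases. KDM7A at 0.63, KDM1B at 0.46, KDM3A at 0.38, KDM6A at 0.36, SETD7 at 0.35, KMT5B at 0.29 and HDAC9 at 0.25 still passed. For KDM6A the annotated length was 7.14 kb, whereas its reads and FPKM implied 27.7 kb. With the trend over implied length removed its change was 0.24 (adjusted p = 0.00916). HDAC2, whose exons are long, was at -0.36, and KAT2A was at -0.62. The part of RNA quality or library preparation in the relation to length was not tested.

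**Figure D5:**
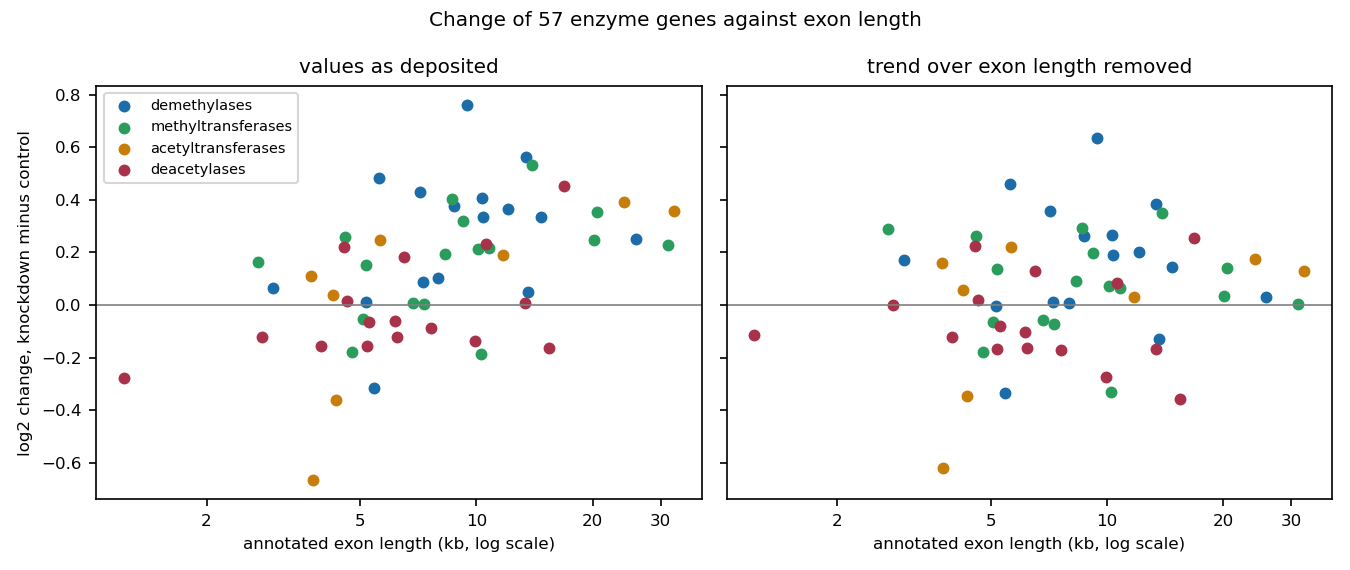
Log2 change of the 57 tested enzyme genes, knockdown minus control (y axis), against annotated exon length in kb (x axis, log scale), with values as deposited (left) and with the trend over exon length of all genes removed (right), coloured by class. On the left the points rise with length (Pearson r 0.51), and on the right the relation is weaker (0.16) while KDM7A remains the highest point and KAT2A the lowest.

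The scale of the libraries also bears on the counts. The FPKM of all genes summed to 271372 to 274709 in control and to 234624 to 248082 in knockdown libraries. Scaling every library to a common sum moved the median log2 change of all genes from 0.01 to 0.14, and then 43.4% of all genes were called higher and 16.4% lower. On that scale 35 of the 57 enzymes rose and 3 fell, namely KAT2A at -0.51, KAT8 at -0.21 and KDM1A at -0.15. The class medians were 0.47 for demethylases, 0.33 for methyltransferases, 0.28 for acetyltransferases and 0.06 for deacetylases, in the same order as before. Relative to the median of all genes, the deacetylases thus lay below it on both scales.

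Other genes of the same pathways were counted from lists of the enzymes' relatives, partners and cofactor suppliers. All counts of these lists stand against 29.5% of all genes called higher, 27.8% called lower and a median log2 change of 0.01. Of 20 other lysine methyltransferases 7 rose and 5 fell (35.0% and 25.0%), with a median log2 change of 0.02. The largest rise was that of NSD1, an H3K36 methyltransferase, from 5.20 ± 0.249 to 9.61 ± 0.669 FPKM (log2 change 0.77 ± 0.07), and the largest fall that of MECOM, a PRDM-type transcription factor, from 5.02 ± 0.494 to 3.42 ± 0.503 FPKM. Of 12 other jumonji proteins 5 rose and 3 fell, with JMJD1C, a relative of KDM3A, at 0.46 and JMJD8 at -0.57. Of 8 arginine methyltransferases 3 rose, PRMT5 the most with 0.40, and 2 fell, PRMT7 the most with -0.22. The fall of PRMT7 was not called without control replicate 3 (adjusted p = 0.0601) or on the common sum (-0.09, adjusted p = 0.301).

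Of the 13 other acetyltransferases 9 rose and 1 fell (69.2% and 7.69%, beside 29.5% and 27.8% of all genes), with a median log2 change of 0.44. CREBBP, the coactivator that acetylates H3K27 and H3K18, was at 3.37, 3.70 and 3.36 FPKM in control and at 5.75, 7.15 and 6.09 FPKM in knockdown libraries. Its mean was 1.82-fold higher with no overlap (log2 change 0.71 ± 0.08, adjusted p = 6.74e-05). HAT1, which acetylates newly made H4, fell from 14.1 ± 0.369 to 12.3 ± 0.332 FPKM, and was not called without control replicate 1 (adjusted p = 0.0526) or on the common sum (-0.03, adjusted p = 0.696). Of 46 acetyltransferase complex partners 22 rose and 6 fell (47.8% and 13.0%), with a median of 0.17 beside 0.01 over all genes. The extremes were EPC2, a subunit of the KAT5 complex, at 0.74 and ING4, a subunit of the KAT7 complex, at -0.62.

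The partners of the KMT2 and SETD1 methyltransferases showed 3 rises and 4 falls among 14 (21.4% and 28.6%, beside 29.5% and 27.8% of all genes), with BOD1L1 at 0.47 and CXXC1, the CpG-binding subunit of the SETD1 complexes, at -0.51. Of 36 deacetylase corepressor partners 10 rose and 4 fell (27.8% and 11.1%), with a median of 0.08. Both named members of this list belong to the CoREST complex that holds KDM1A, HDAC1 and HDAC2. RCOR1, its scaffold, was at 14.8, 13.5 and 13.8 FPKM in control and at 20.3, 23.7 and 20.1 FPKM in knockdown libraries, a 1.52-fold higher mean (log2 change 0.57 ± 0.07). HMG20B, an HMG-box subunit, was at 18.1, 18.9 and 18.6 FPKM in control and at 11.0, 10.5 and 11.0 FPKM in knockdown libraries, so that its mean fell by 41.5% (log2 change -0.72 ± 0.05, adjusted p = 2.50e-06). Of 10 genes of cofactor supply 3 rose and 3 fell (30% each, beside 29.5% and 27.8% of all genes). MAT2A, which makes the methyl donor S-adenosylmethionine, was at 41.4, 44.3 and 41.2 FPKM in control and at 62.0, 77.4 and 66.3 FPKM in knockdown libraries (log2 change 0.68 ± 0.07), and NAPRT, an enzyme of NAD synthesis, fell by 0.40 on the log2 scale.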

How the data were processed

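Total RNA was taken from HaCaT cultures by TRIzol and made into libraries by an Illumina TruSeq RNA kit, per the labels' protocols. The authors deposited FPKM values per gene and library. The submitters' processing notes name HISAT2 2.2.1 and the build GRCh38. For the counting program, its gene lengths and the use of strand the entry is: not given in the sources used here. FPKM divides by length and by the library total, so a shift of abundant transcripts moves all other genes, and how reads shared by paralogs or by overlapping genes were counted cannot be seen. Whole reads were recovered from the step of the values for all 12829 genes (tolerance 0.004 reads), and a divisor common to all 6 reads of a gene cannot be seen. They served for depth and for an alternative.

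Groups and replicate numbers were taken from the sample labels. Knockdown was compared with control in limma 3.58.1 (R 4.3.3) on log2(FPKM + 1), with group as the only factor and a mean-variance trend, for genes whose 6 libraries averaged 0.5 FPKM or more. Tests were two-sided, with Benjamini-Hochberg adjustment over all genes tested and a threshold of 0.05. IQGAP2, below the filter, was added to the same fit. A log2 change on this scale understates that of low genes. No class or list was tested. The fit was also run on simulated reads with few changed genes and no trend over length. That run cannot bear on how length or library scale moved the calls here.

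The members, the gene lists, the named-gene rule and the alternatives were chosen with earlier results of these data known. The rule named, for each symbol family, up to 3 rises and 2 falls that were called without overlap of the groups, 17 well-known members and the most abundant member of each family, and from each list of other genes the largest rise and fall called. Exon lengths came from GENCODE v29, matched by identifier for 12818 genes, and promoter windows from RefSeq on GRCh38.p14. Length trends were removed with a natural spline of 5 degrees of freedom per library. The alternatives were pseudocounts of 0.1 and 0.5, no filter, a filter at 5 FPKM, a common FPKM sum, quantile normalization, removal of the trend over annotated or implied length (the latter added after seeing the data), voom on the recovered reads, a replicate block and leaving out each library.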

Additional observations from a re-analysis of the deposited data

How the results depend on the processing

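Over the 31 named members and all alternatives, 425 of 483 values kept their direction and their side of the threshold, 51 lost the call, 4 gained it and 3 changed sign. Of the 27 members that rose 13, and of the 5 that fell 3 (KAT2A, KAT8 and KDM1A), kept the call in every alternative in which they were tested. The changes of sign were HDAC1 (0.0075) and SIRT6 (0.031) on the common FPKM sum and HDAC3 (-0.00045) with voom. With the filter at 5 FPKM, which leaves fewer genes, 13 members rose, among them 6 demethylases, 6 methyltransferases, 0 acetyltransferases and 1 deacetylase, and the median log2 change was -0.36 for acetyltransferases and -0.12 for deacetylases. On the common sum 3 members fell, 6 acetyltransferases rose and 0 deacetylases fell, with medians of 0.47, 0.33, 0.28 and 0.058 for demethylases, methyltransferases, acetyltransferases and deacetylases. With the length trend removed 16 members, 6 methyltransferases, 0 acetyltransferases and 2 deacetylases rose and 1 methyltransferase fell, with medians of 0.18, 0.073 and 0.094 for the first 3 classes. With the trend over implied length removed 0 acetyltransferases and 2 deacetylases rose and 1 methyltransferase fell, with medians of 0.19, 0.092 and 0.10. With quantile normalization 2 deacetylases rose and 1 methyltransferase fell, and the medians were 0.11 for acetyltransferases and -0.11 for deacetylases. With voom 8 members and 2 methyltransferases fell, and the deacetylase median was -0.11. With a pseudocount of 0.1 the medians were 0.38 for demethylases and 0.19 for acetyltransferases. Leaving out 1 library at a time gave 5 to 11 methyltransferases higher and 0 to 1 lower, 1 to 4 deacetylases higher and 0 to 2 lower, an acetyltransferase median of 0.12 to 0.18 and a log2 change of IQGAP2 of -0.23 to -0.22. The cause of these differences was not tested. The share of all genes called is not given here for voom, quantile normalization or the filter at 5 FPKM. Of the fits without a library it is given only for that without knockdown replicate 2. Same-numbered libraries did not deviate together (r = -0.07, -0.04 and 0.02). With 3 libraries per group this cannot settle whether the numbers mark a pairing. With a replicate block 26 members rose and 6 fell, 1 of these a methyltransferase, and SIRT5 was the only member to lose its rise. KDM8, HDAC8 and HDAC10 lay below the filter on low values.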
